A study of Mus musculus with 4 samples.

Results

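Oxidative phosphorylation genes were compared across the mitochondrial and nuclear genomes in primary mouse hepatocytes, the main parenchymal cells of the liver. The 13 genes of the mitochondrial DNA that code for proteins were taken by symbol, and the 100 nuclear genes were the protein-coding genes whose symbols begin with Nduf, Uqcr, Cox followed by a digit, or Atp5. These 113 genes were chosen among the 45777 of the table by a rule on their names. All 13 mitochondrial genes and 92 of the 100 nuclear genes had an FPKM (fragments mapped to a gene, scaled to its length and to the library) of at least 1 in at least 1 library, as did 11927 genes in all.

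Each of the 4 groups held 1 library: Dusp6 KO cells with fatty acids, wild-type (WT) cells with fatty acids, KO cells left untreated and WT cells left untreated. Fatty acids were palmitic acid at 0.5 mM with oleic acid at 1 mM for 24 h, given after 3 h of culture. Dusp6 codes for a phosphatase that inactivates the kinase ERK, and its FPKM was 1.11 in KO cells with fatty acids, 77.1 in WT cells with fatty acids, 1.42 in KO untreated cells and 40.7 in WT untreated cells. The labels do not give the age or sex of the mice or the number pooled per culture. A difference between 2 of these libraries cannot be set against a spread between replicates, so pairs of libraries are described without p-values.

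The respiratory chain passes electrons from NADH and other donors through complexes I, III and IV to oxygen and pumps protons across the inner mitochondrial membrane. ATP synthase, complex V, uses that gradient to make ATP. Each of these complexes joins a small core made on mitochondrial ribosomes from mitochondrial mRNA with many subunits that are coded in the nucleus and imported. The mitochondrial mRNAs are cut from long transcripts of each strand of the circular DNA, whereas each nuclear gene has its own promoter. Liver cells hold many mitochondria and oxidise fatty acids in them.

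Because the deposited scale differs between libraries, differences of log2(FPKM + 1) are centred on their median in 5903 genes whose FPKM reached 5 in all 4 libraries, and are called relative. On the deposited scale that median was 0.38 for KO minus WT when fatty acids were present, 0.00 for KO minus WT untreated, -0.26 for fatty acids minus untreated in WT cells and 0.16 for the same in KO cells. A difference of 2-fold on this scale stands in place of a test. Shares of all compared genes past 2-fold or on either side of 0 are given on this relative scale only. They were not counted on the deposited scale or from TPM. Total reads per library ranged from 85423156 to 97364292. Hepatocyte markers were abundant in every library, with summed FPKM of 8430 in KO and 8477 in WT cells with fatty acids, and 7845 in KO and 6452 in WT untreated cells. Macrophage markers summed to 117 and 107 FPKM in KO and WT cells with fatty acids, and to 101 and 46.0 FPKM in KO and WT untreated cells. Markers of some other cells of the liver also differed between KO and WT untreated cells. Their sums were 19.2 and 6.76 FPKM for sinusoidal endothelium, 24.3 and 7.16 FPKM for cholangiocytes and 1.87 and 0.33 FPKM for stellate cells. An FPKM of at least 1 was reached by 4 of 8, 2 of 5 and 1 of 6 of these markers. Red blood cell markers summed to 62.0 and 70.7 FPKM in KO and WT untreated cells, and lymphocyte and neutrophil markers to 7.66 and 6.93 FPKM. With fatty acids the KO and WT sums were 13.6 and 14.4 FPKM for endothelium, 22.8 and 16.8 FPKM for cholangiocytes and 2.04 and 0.521 FPKM for stellate cells. They were 75.2 and 121 FPKM for red blood cells and 10.4 and 12.5 FPKM for lymphocytes and neutrophils. The part of these cells in the results below was not tested. In such bulk RNA, fewer cells of a type and less RNA per cell cannot be told apart.

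The genes lie close together on the mitochondrial DNA, which bears on how reads can be assigned to them. ATP8 (chrM:7766-7969) and ATP6 (chrM:7927-8607, mm10) share 43 bases on the same strand, shown here because a read inside them belongs to both. The first capitals mark the start codon of ATP6 and the last the stop codon of ATP8, at chrM:7927-7969 on the plus strand.
ATP8 and ATP6 overlap: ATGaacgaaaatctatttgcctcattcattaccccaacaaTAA
ND4L (chrM:9877-10173) and ND4 (chrM:10167-11544) likewise share 7 bases, and ND6 (chrM:13552-14070) is the one member on the minus strand. Nuclear copies of mitochondrial DNA add a further ambiguity. Among GENCODE M21 nuclear transcripts on the same build, COX2, ATP6, COX3 and ND4L had copies with 100% identity and ND3 one with 99.7% identity, all over about 99% or more of the gene and within chr1:24612407-24615565. ND4 matched a copy at 100% over 63.6% of its length, COX1 one at 97.6%, and ND1, ND2 and ATP8 had no copy over 50% of the gene. These copies are not analysed here, and the sources used here do not say how reads shared with them were counted.

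The largest mitochondrial values belonged to the catalytic core of complex IV, cytochrome c oxidase, where oxygen is reduced. COX1 had 6168 FPKM in KO and 8694 FPKM in WT cells with fatty acids, against 4838 FPKM in KO and 3987 FPKM in WT untreated cells. COX3 had 2370 and 2808 FPKM in KO and WT cells with fatty acids, and 1869 and 1326 FPKM in KO and WT untreated cells. COX2 had 620 and 842 FPKM in KO and WT cells with fatty acids, and 580 and 348 FPKM in KO and WT untreated cells. All 3 genes were lowest in WT untreated cells and highest in WT cells with fatty acids, with both KO libraries between. Together they made up 91.9% of the mitochondrial FPKM in KO and 90.5% in WT cells with fatty acids, and 87.0% in KO and 89.8% in WT untreated cells.

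CYTB, cytochrome b, is the mitochondrial subunit of complex III, and ATP6 and ATP8 belong to the membrane part of ATP synthase. CYTB had 118 and 183 FPKM in KO and WT cells with fatty acids, and 189 and 80.6 FPKM in KO and WT untreated cells. ATP6 had 134 and 224 FPKM in KO and WT cells with fatty acids, and 181 and 111 FPKM in KO and WT untreated cells. ATP8 had 34.98 and 51.5 FPKM in KO and WT cells with fatty acids, and 52.1 and 31.3 FPKM in KO and WT untreated cells. In each of these genes the KO library was the lower one with fatty acids and the higher one without.

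The other 7 mitochondrial genes code for core subunits of the membrane arm of complex I, NADH dehydrogenase. ND1 had 208 and 420 FPKM in KO and WT cells with fatty acids, and 280 and 164 FPKM in KO and WT untreated cells. ND2 had 23.8 and 53.5 FPKM in KO and WT cells with fatty acids, and 46.9 and 21.0 FPKM in KO and WT untreated cells. Both again had the KO library below WT with fatty acids and above it without. ND4 had 56.0 and 79.0 FPKM in KO and WT cells with fatty acids, and 123 and 42.7 FPKM in KO and WT untreated cells. ND5 had 48.1 and 73.9 FPKM in KO and WT cells with fatty acids, and 98.7 and 47.9 FPKM in KO and WT untreated cells. For ND4 and ND5 the highest of the 4 libraries was KO untreated, as it was for ATP8 and CYTB, whereas WT with fatty acids was highest for the other 9 genes. ND3 and ND6 had another order. ND3 had 173 and 194 FPKM in KO and WT cells with fatty acids, and 114 and 135 FPKM in KO and WT untreated cells. ND6 had 8.71 and 11.1 FPKM in KO and WT cells with fatty acids, and 5.64 and 6.76 FPKM in KO and WT untreated cells. In these genes KO was the lower library in both conditions. ND4L, the member with the fewest reads of the 13, had 3.75 and 6.83 FPKM in KO and WT cells with fatty acids (125 and 211 reads), and 3.75 and 2.53 FPKM in KO and WT untreated cells (111 and 75 reads).

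**Figure D1:**
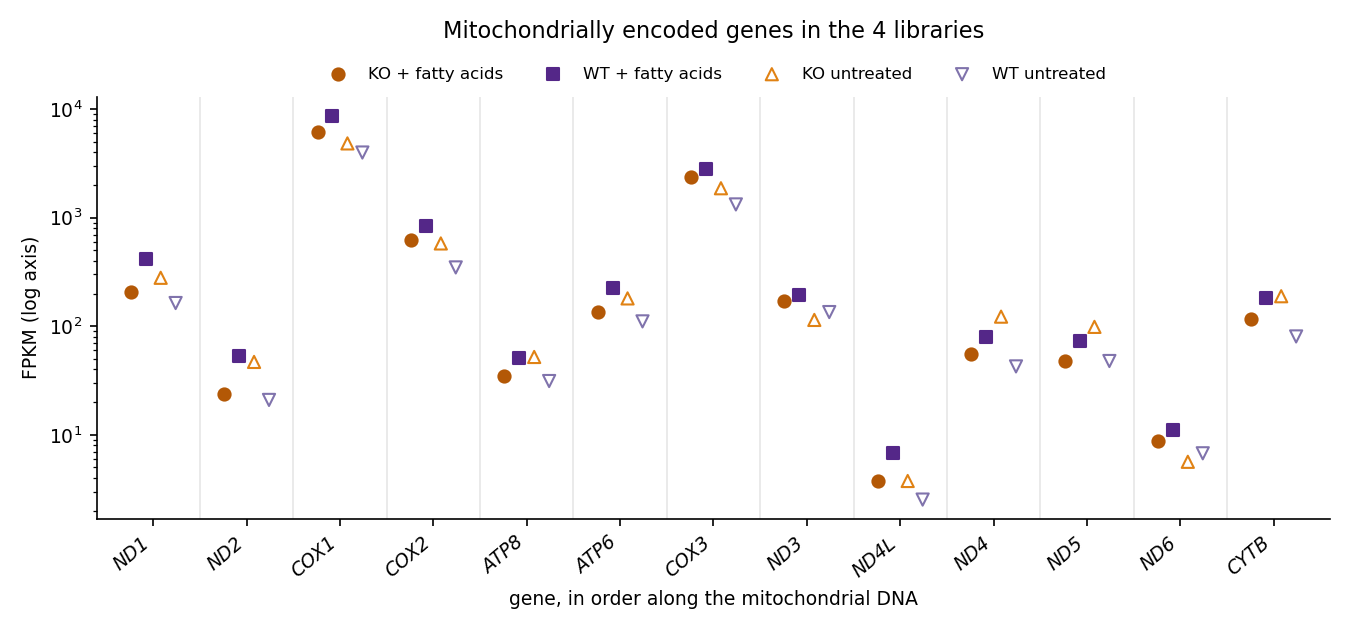
FPKM on a log axis (vertical) of the 13 mitochondrially encoded genes in their order along the mitochondrial DNA (horizontal), with 1 point per library. The WT library with fatty acids is the highest for 9 genes and the KO untreated library for ATP8, ND4, ND5 and CYTB.

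In WT cells, fatty acids went with higher mitochondrial mRNA for every one of the 13 genes. The median difference was 1.34 on the relative log2 scale (1.08 on the deposited scale), and the range was 0.78 for ND3 to 1.62 for ND1. Past 2-fold were 9 of 13 genes, against 3.57% of all compared genes higher by that much and 0.654% lower. Above 0 lay 53.6% of all compared genes. From TPM 5 of 13 passed 2-fold, with no share of all genes counted on that scale. Counting error was small beside these differences: the ratio of read shares was 2.24 for COX1 (95% interval 2.24 to 2.25) and 2.76 for ND4L (2.11 to 3.64), where intervals cover counting error only. The ribosomal RNAs of the same genome were also higher, mt-Rnr1 at 1672 against 489 FPKM and mt-Rnr2 at 10333 against 4745 FPKM in WT cells with fatty acids against untreated.

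The nuclear genes lay close to the median gene. Their median was 0.15 in the same comparison (-0.11 on the deposited scale). Past 2-fold were 0 of 92, against 3.57% of all compared genes higher and 0.654% lower. Above 0 lay 64 of 92 and below it 28, against 53.6% and 46.4% of all compared genes. All 13 mitochondrial genes lay above every nuclear member. By complex, the medians of nuclear subunits were 0.16 for complex I (36 genes), 0.09 for complex III (8 genes), 0.22 for complex IV (11 genes) and 0.15 for complex V (17 genes). The highest nuclear value was that of Cox6c, a small subunit of complex IV, at 0.71, followed by the complex I assembly factor Ndufaf8 at 0.57, the complex III subunit Uqcrb at 0.52, the complex IV subunit Cox7b at 0.49 and the complex I subunit Ndufv3 at 0.48. The lowest were Ndufs7, a core subunit of complex I that binds an iron-sulphur cluster, at -0.60, the assembly factor Ndufaf1 at -0.55, the ATP synthase c-ring gene Atp5g1 at -0.51, the F1 alpha subunit Atp5a1 at -0.38 and the assembly factor Ndufaf4 at -0.25.

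In KO cells the same treatment split the mitochondrial genes. Their median was -0.59 (-0.42 on the deposited scale), with 9 genes below 0 and 4 above, against 62.1% and 37.9% of all compared genes. ND4 (-1.28), ND5 (-1.18) and ND2 (-1.11) were past 2-fold lower and none was past 2-fold higher, against 5.05% and 0.101% of all compared genes. CYTB (-0.84), ATP8 (-0.72), ATP6 (-0.59) and ND1 (-0.59) were also lower, ND4L (-0.16) and COX2 (-0.06) were near 0, and COX3 (0.18), COX1 (0.19), ND6 (0.39) and ND3 (0.43) were above 0. COX2 lay above 0 on the deposited scale, and 6 genes rather than 4 lay above 0 with reads scaled by TMM. The ribosomal RNAs differed from each other in KO cells. With fatty acids against untreated, mt-Rnr1 was lower (468 against 735 FPKM, -0.81) and mt-Rnr2 was near 0 (4650 against 4380 FPKM, -0.07).

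Nuclear members were mostly slightly above the median gene in KO cells. Their median was 0.19 (0.36 on the deposited scale, 0.39 with TMM and 0.029 when GC content and length were adjusted for). Above 0 lay 81 of 92, against 37.9% of all compared genes. Past 2-fold were 0 of 92, against 0.101% of all compared genes higher and 5.05% lower. The SD of the nuclear members, 0.16, was the smallest of the 4 comparisons. The highest were the assembly factor Ndufaf2 at 0.49, the ATP synthase membrane subunits Atp5k at 0.46 and Atp5md at 0.43, the complex I subunit Ndufb6 at 0.43 and the c-ring gene Atp5g2 at 0.40. The lowest were Cox10, which makes a haem A precursor, at -0.47, the mitochondrial acyl carrier protein Ndufab1 at -0.22, the copper chaperone Cox11 at -0.19, Ndufaf6 at -0.17 and the stalk subunit Atp5j at -0.11.

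**Figure D2:**
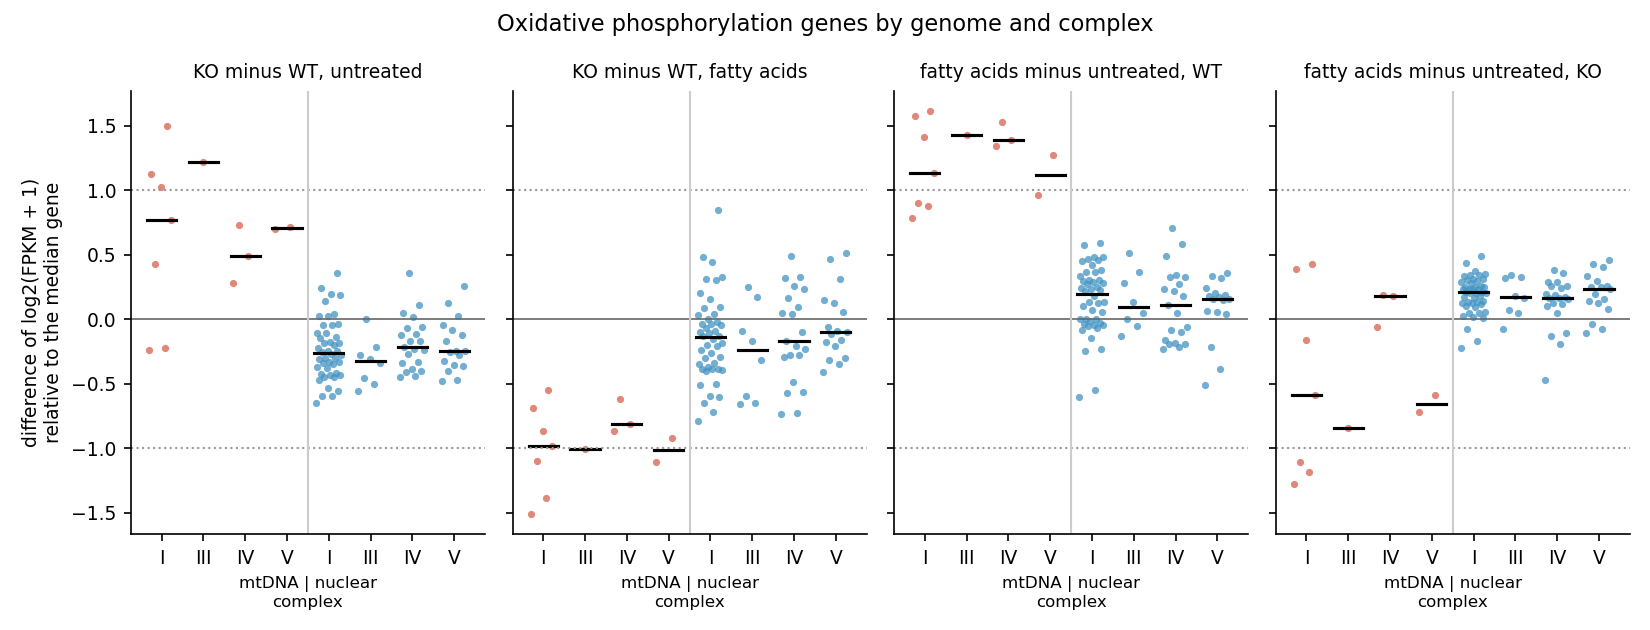
Difference of log2(FPKM + 1) relative to the median gene (vertical) for each compared member in 4 comparisons (panels), by respiratory complex and genome (horizontal). Points are genes, black bars medians, red the 13 mitochondrial genes, blue the 92 nuclear genes and dotted lines 2-fold. The mitochondrial points lie above all nuclear points for fatty acids minus untreated in WT cells, and no nuclear point passes 2-fold.

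The difference of the fatty acid responses, KO minus WT, was below 0 for all 13 mitochondrial genes relative to the median gene, with a median of -1.63 (-1.26 on the deposited scale, where 12 of 13 lay below 0). Past 2-fold lower were 11 of 13, against 9.33% of all compared genes, and 0 were higher, against 1.48%. Below 0 lay 60.5% of all compared genes. The nuclear median was 0.09, with 60 of 92 above 0, against 39.5% of all compared genes, and none past 2-fold. On the deposited scale it was 0.45, with 87 of 92 above 0 and 4 past 2-fold higher (Ndufs7, Ndufaf1, Atp5a1 and Atp5g1). The 4 comparisons share libraries, so these values restate the same measurements and are not separate evidence. ND2 (-2.63), ND4 (-2.36), CYTB (-2.22), ND1 (-2.15) and ND5 (-2.01) had the most negative values, and ND3 (-0.30) the least. Among nuclear genes the largest values ran the other way: Ndufs7 at 0.89, Ndufaf1 at 0.82, Atp5a1 at 0.77, Atp5g1 at 0.64 and Cox4i1, the common isoform of complex IV subunit 4, at 0.63.

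**Figure D3:**
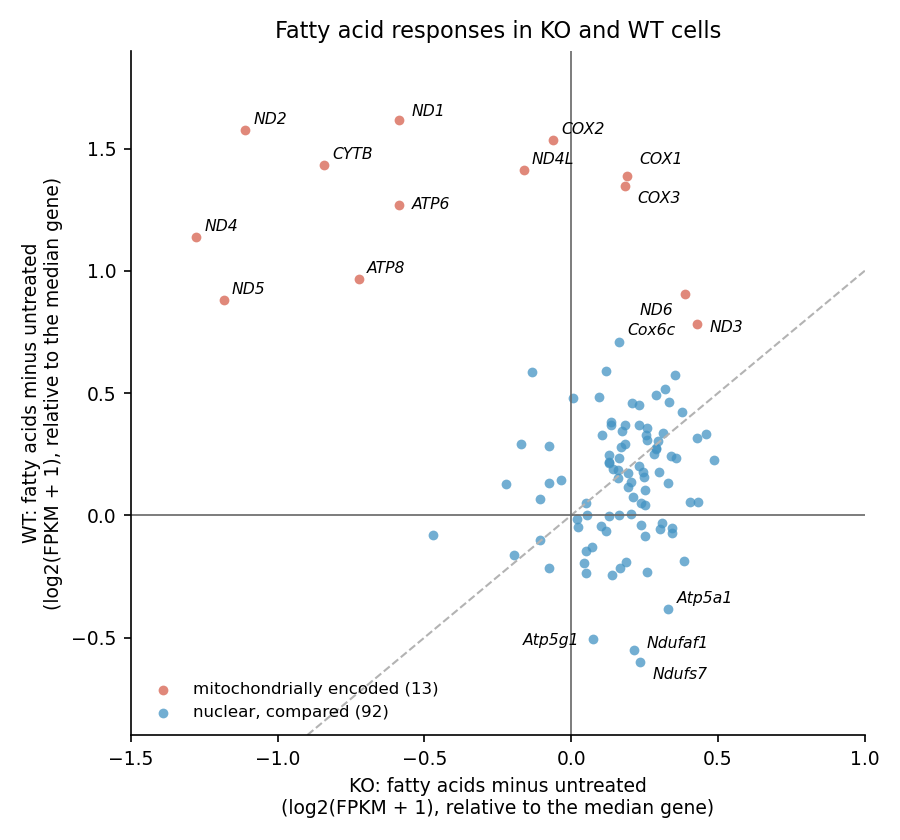
Fatty acid response in KO cells (horizontal) against that in WT cells (vertical), as differences of log2(FPKM + 1) relative to the median gene, for 13 mitochondrial (red) and 92 nuclear (blue) genes. The dashed line marks equal responses. All 13 mitochondrial genes lie above it, and 9 of them lie left of 0 in KO cells.

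With fatty acids present, every mitochondrial gene was lower in KO than in WT cells. The median of KO minus WT was -0.92 (-0.55 on the deposited scale and -0.16 from TPM, where 3 of 13 lay above 0). Below 0 lay 55.0% of all compared genes. Past 2-fold lower were ND2 (-1.51), ND1 (-1.39), ATP6 (-1.11), ND4L (-1.10) and CYTB (-1.01), which is 5 of 13 against 8.43% of all compared genes, and 0 were higher, against 3.12%. On the deposited scale 2 of 13 were past 2-fold lower, and from TPM 0 were. mt-Rnr1 stood at 468 FPKM in KO and 1672 FPKM in WT cells with fatty acids, and mt-Rnr2 at 4650 and 10333 FPKM.

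The nuclear median in that comparison was -0.14, but 0.24 on the deposited scale and 0.62 from TPM, so its sign depends on the scaling. From TPM 15 of 92 passed 2-fold, with no share of all compared genes counted on that scale. Members ranged from -0.79 for Ndufv3 to 0.85 for Ndufs7, and 0 of 92 passed 2-fold relative to the median gene, against 1 on the deposited scale. Of all compared genes, 3.12% were past 2-fold higher and 8.43% lower relative to the median gene. After Ndufv3 the lowest were Cox6c at -0.73, the complex I subunit Ndufb9 at -0.72 and the complex III subunits Uqcrb at -0.66 and Uqcrq at -0.65. After Ndufs7 the highest were Atp5a1 at 0.51, Cox7a2 at 0.49, the iron-sulphur subunit Ndufs1 at 0.48 and Atp5g1 at 0.47. The core subunits of complex I (7 genes) had a median of 0.10 and its accessory subunits (29 genes) one of -0.26.

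Levels in each library are given here for some of the nuclear genes named above. Ndufs7 (chr10) had 32.3 FPKM in KO and 13.3 FPKM in WT cells with fatty acids, and 24.3 and 24.9 FPKM in KO and WT untreated cells. Ndufaf1 had 23.3 and 12.8 FPKM in KO and WT cells with fatty acids, and 17.8 and 23.2 FPKM in KO and WT untreated cells. Atp5a1 had 309 and 166 FPKM in KO and WT cells with fatty acids, and 219 and 261 FPKM in KO and WT untreated cells. In these 3 genes the WT library with fatty acids was the lowest, where the mitochondrial genes were mostly highest. Atp5g1 had 124 and 68.9 FPKM in KO and WT cells with fatty acids, and 105 and 118 FPKM in KO and WT untreated cells. Cox6c had 236 and 302 FPKM in KO and WT cells with fatty acids, and 188 and 221 FPKM in KO and WT untreated cells. Ndufv3 had 33.1 and 44.4 FPKM in KO and WT cells with fatty acids, and 27.6 and 37.9 FPKM in KO and WT untreated cells. Cox6c and Ndufv3 thus had their highest level in the WT library with fatty acids and their lowest in KO untreated.

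**Figure D4:**
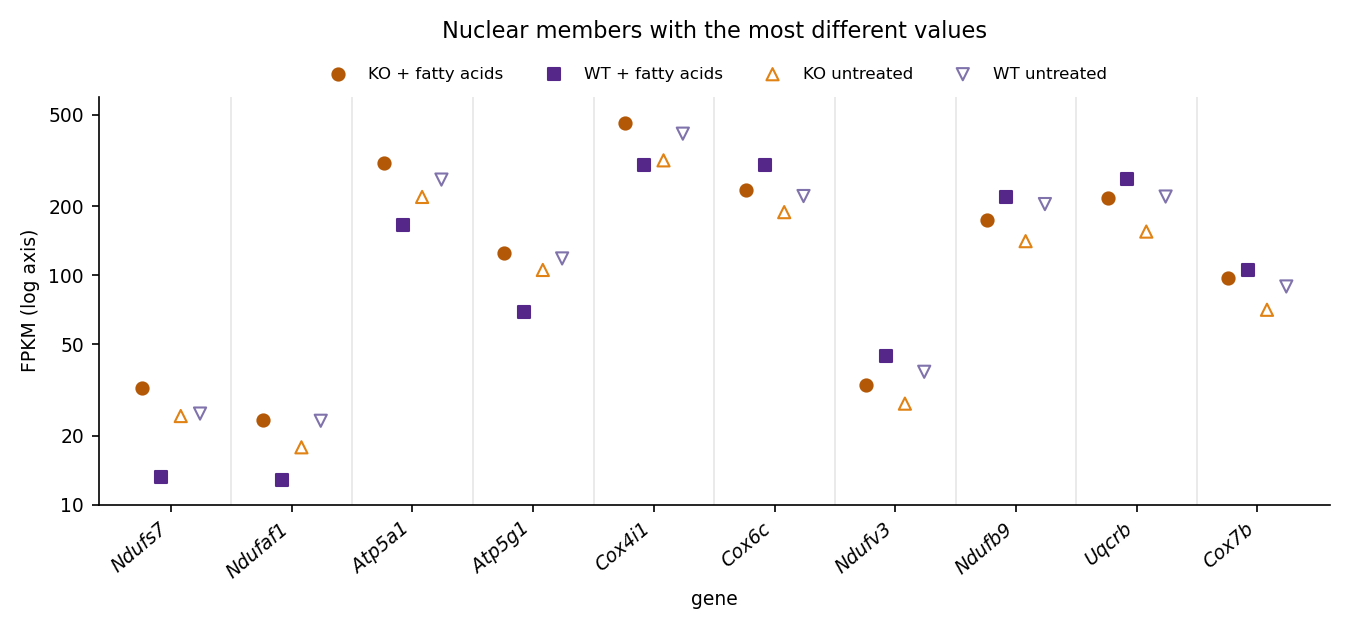
FPKM on a log axis (vertical) of 10 nuclear members among those with the highest or lowest differences (horizontal), with 1 point per library. Ndufs7, Ndufaf1, Atp5a1 and Atp5g1 are lowest in WT cells with fatty acids (13.3, 12.8, 166 and 68.9 FPKM), and Cox6c, Ndufv3, Ndufb9, Uqcrb and Cox7b are highest there.

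Without fatty acids, the mitochondrial genes were mostly higher in KO than in WT cells. The median of KO minus WT was 0.72, and 11 of 13 lay above 0, against 57.3% of all compared genes. ND4 (1.499), CYTB (1.22), ND2 (1.12) and ND5 (1.03) passed 2-fold, which is 4 of 13 against 3.55% of all compared genes. From TPM 8 of 13 passed, with no share of all genes counted on that scale. ND3 (-0.24) and ND6 (-0.23) lay below 0, and none was past 2-fold lower, against 2.1% of all compared genes. COX1 and COX3, the most abundant, had differences of 0.28 and 0.49, and ND4L one of 0.43. Nuclear members ran the other way, with a median of -0.25 (0.05 from TPM) and 0 past 2-fold. Below 0 lay 76 of 92, against 42.7% of all compared genes. The lowest were Ndufaf2 at -0.65, the core subunit Ndufs3 at -0.60, the complex I subunit Ndufb10 at -0.59, the complex III subunit Uqcr10 at -0.56 and Ndufb6 at -0.55. The highest were the assembly methyltransferase Ndufaf7 at 0.36, Cox7a2 at 0.36, the F1 subunit Atp5d at 0.26, the core subunit Ndufs8 at 0.20 and Ndufc2 at 0.19. For Cox7a2 and Atp5d the read counts gave the opposite sign, with log2 ratios of read shares of -0.20 and -0.24. Of the mitochondrial ribosomal RNAs, mt-Rnr1 had a KO minus WT difference of 0.58 (735 and 489 FPKM in KO and WT untreated cells). That of mt-Rnr2 was -0.12 (4380 and 4745 FPKM), so it did not follow the mitochondrial mRNA median here.

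The ratio of the 2 genomes within a library needs no scaling between libraries. Summed FPKM of the 13 mitochondrial genes over that of the 100 nuclear genes was 1.04 in KO and 1.63 in WT cells with fatty acids, and 1.14 in KO and 0.703 in WT untreated cells. The ratio of these sums was thus lowest in WT untreated and highest in WT cells with fatty acids, and the KO libraries lay close together between them. COX1, COX2 and COX3 make up most of the mitochondrial sum. For fatty acids minus untreated in KO cells, the log2 ratio was -0.29 without COX1 and -0.51 from medians of log2 FPKM, so the KO libraries were then further apart. From the full sums, the log2 ratio for fatty acids minus untreated was 1.21 in WT cells and -0.14 in KO cells. That for KO minus WT was -0.65 with fatty acids and 0.70 without. Mitochondrial members took 1.43% and 2.02% of reads in KO and WT cells with fatty acids, and 1.21% and 0.903% in KO and WT untreated cells. Nuclear members took 0.958% and 0.797% of reads in KO and WT cells with fatty acids, and 0.748% and 0.880% in KO and WT untreated cells. Rn7s1 and Rn7s2 are RNAs of the signal recognition particle and enter neither sum of the ratio. Together they took 2.60% and 8.20% of reads in KO and WT cells with fatty acids. In KO and WT untreated cells they took 3.94% and 6.20%. Their part in the shares of reads was not tested.

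The make-up of the mitochondrial FPKM also differed. COX1, COX2 and COX3 summed to 20.2 times the FPKM of ND1, ND2, ND4, ND5 and CYTB in KO and 15.3 times in WT cells with fatty acids, and to 9.89 times in KO and 15.9 times in WT untreated cells. The WT ratios were alike with and without fatty acids, and the KO ratios lay on either side of them. These groups of genes were chosen after their values were seen. They also differ in their nuclear copies, which were at 97.6%, 100% and 100% identity for COX1, COX2 and COX3. ND4 had one at 100% over 63.6% of its length, ND5 one at 95.2% and CYTB one at 92.9%. ND1 and ND2 had none over 50% of the gene. The part of reads shared with such copies in these ratios was not tested.

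**Figure D5:**
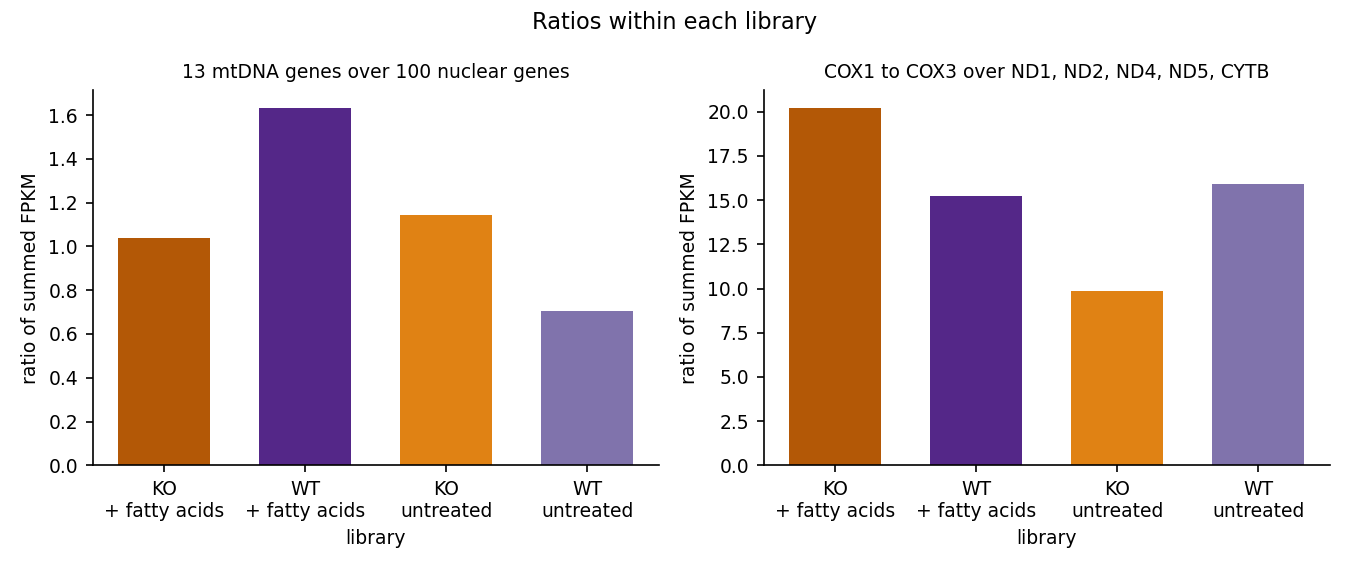
Ratios of summed FPKM (vertical) in each of the 4 libraries (horizontal), for the 13 mitochondrial over the 100 nuclear genes (left) and for COX1 to COX3 over ND1, ND2, ND4, ND5 and CYTB (right). The left ratio is 1.04 and 1.14 in the KO libraries with and without fatty acids, and 1.63 and 0.703 in the WT libraries with and without them.

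The one fit with a test used edgeR's quasi-likelihood test with a genotype term and a fatty acid term over the 4 libraries, which leaves 1 residual degree of freedom and takes any difference between the responses as spread. For genotype it called 0 of 13 mitochondrial and 0 of 92 nuclear genes after Benjamini-Hochberg adjustment over all genes, against 5.49% of all compared genes. The lowest adjusted p was 0.386 for a mitochondrial gene (ND3) and 0.165 for a nuclear one (Ndufb9), and 0 and 5 genes had an unadjusted p under 0.05, which is 5.43% of the nuclear genes against 19.0% of all compared genes. For fatty acids edgeR called 0 and 0, against 0.0335% of all compared genes. The lowest adjusted p was 0.53 (ND3) and 0.764, and 4 mitochondrial (ND3, COX3, COX2 and COX1) and 0 nuclear genes had an unadjusted p under 0.05, as did 6.96% of all compared genes. DESeq2 also called 0 of either genome for both effects. Under an unadjusted 0.05 it had 0 mitochondrial and 3 nuclear genes for genotype and 4 and 0 for fatty acids. Of all 11927 compared genes it called 835 for genotype and 25 for fatty acids, with 2032 and 720 under an unadjusted 0.05.

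Some subunits exist as isoforms that replace one another between tissues, and here the ubiquitous or liver forms were abundant. Atp5b, the catalytic F1 subunit, was the most abundant nuclear member at a mean of 505 FPKM over the libraries, followed by Cox4i1 (374), Ndufa4 (355), Cox7c (297) and Cox6b1 (244), the last 4 being subunits of complex IV. Cox6a1, Cox7a2 and Cox8a averaged 167, 111 and 173 FPKM. Their counterparts known from other tissues, Cox4i2, Cox6b2, Cox7b2, Cox8b, Cox8c and Ndufa4l2, had 0 reads in every library. Cox6a2 and Cox7a1 reached at most 0.671 and 0.899 FPKM, and with these the 8 nuclear members outside the comparison are accounted for. Of 6 muscle markers, Myh6, Ckm, Tnni3 and Mb also had 0 reads, and with Acta1 and Tnnt2 the list summed to between 0.164 and 1.04 FPKM per library. The 3 genes of the ATP synthase c ring, which code for the same mature protein, were all expressed: Atp5g1, Atp5g2 and Atp5g3 averaged 104, 123 and 148 FPKM. Ndufb4b and Ndufb4c, at 3.61 and 3.89 FPKM on average, are near copies of Ndufb4, so their reads may be shared with it.

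Promoters of the nuclear genes were searched for the letters of 3 factors known to act on genes of oxidative phosphorylation. RefSeq promoters on GRCm38.p6, from 250 bases before the start to 50 after, were found for 77 of the 92 compared nuclear genes. The letters GCGCATGC of NRF1, on either strand, stood in 11 of the 77 (14.3%), against 3.05% of all genes with a promoter in the table and 6.26% of compared genes. The letters CCGGAAG of ETS factors such as GABP stood in 22 (28.6%), against 9.93% and 21.7%. The letters AAGATGGC of YY1 stood in 13 (16.9%), against 3.19% and 5.64%. NRF1 letters overlap their own reverse complement where the site is symmetric. The fatty acid response in WT cells had a median of 0.00 for the 11 nuclear genes with NRF1 letters and 0.16 for the 66 without. For ETS letters the medians were 0.18 with and 0.13 without, and for YY1 letters 0.21 and 0.13. Whether these factors have a part in the response was not tested. The promoters below belong to 3 of the 5 nuclear genes named above for their differences of responses (Atp5a1 and Cox4i1 are not shown). As a contrast, that of Cox6a1 is given, whose response difference was 0.03. Each is read 5′ to 3′ on the gene's strand, and capitals mark a match: YY1 in Ndufs7 (chr10:80249199-80249498, plus), ETS in Ndufaf1 (chr2:119662785-119663084, minus), none in Atp5g1 (chr11:96075582-96075881, minus), and NRF1 then ETS in Cox6a1 (chr5:115348909-115349208, minus). A match describes letters and is not a measured binding site.
Ndufs7: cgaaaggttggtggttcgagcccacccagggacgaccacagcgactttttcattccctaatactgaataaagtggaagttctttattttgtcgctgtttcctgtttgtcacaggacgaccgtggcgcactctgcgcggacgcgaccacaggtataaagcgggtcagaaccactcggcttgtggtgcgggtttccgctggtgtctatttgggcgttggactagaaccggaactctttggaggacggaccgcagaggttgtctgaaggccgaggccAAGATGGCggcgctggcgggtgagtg
Ndufaf1: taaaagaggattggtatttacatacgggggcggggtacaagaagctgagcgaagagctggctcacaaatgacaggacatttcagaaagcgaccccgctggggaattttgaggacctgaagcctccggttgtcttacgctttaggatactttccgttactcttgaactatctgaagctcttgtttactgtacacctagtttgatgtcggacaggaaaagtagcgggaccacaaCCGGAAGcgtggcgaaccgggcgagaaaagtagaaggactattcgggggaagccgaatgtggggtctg
Atp5g1: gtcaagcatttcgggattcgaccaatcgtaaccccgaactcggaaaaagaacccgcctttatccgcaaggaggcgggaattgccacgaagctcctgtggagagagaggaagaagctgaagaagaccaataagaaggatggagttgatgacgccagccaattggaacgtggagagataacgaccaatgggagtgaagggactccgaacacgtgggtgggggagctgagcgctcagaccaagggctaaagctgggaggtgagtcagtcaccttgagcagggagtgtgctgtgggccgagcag
Cox6a1: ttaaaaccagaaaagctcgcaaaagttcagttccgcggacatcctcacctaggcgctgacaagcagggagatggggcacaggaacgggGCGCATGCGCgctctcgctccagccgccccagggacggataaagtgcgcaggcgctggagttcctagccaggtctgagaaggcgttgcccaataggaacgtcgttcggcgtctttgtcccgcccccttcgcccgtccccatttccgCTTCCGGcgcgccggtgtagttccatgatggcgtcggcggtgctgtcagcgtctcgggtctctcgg

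Other genes of the pathway and of mitochondrial upkeep were read from written lists for comparison. The 8 genes of complex II, which has no mitochondrially coded subunit, had medians of 0.16 in WT and 0.06 in KO cells for fatty acids minus untreated. Past 2-fold were 0 in either. Of all compared genes, 3.57% were past 2-fold higher and 0.654% lower in WT cells, and 0.101% and 5.05% in KO cells. Of 20 markers of mitochondrial mass, 19 lay below 0 for fatty acids minus untreated in WT cells (median -0.32), against 46.4% of all compared genes. The part of mitochondrial mass in the mitochondrial values was not tested. Tomm40, a pore of the outer membrane, had 46.1 FPKM in KO and 13.5 FPKM in WT cells with fatty acids, and 33.9 and 33.6 FPKM in KO and WT untreated cells. Cs, citrate synthase, had 48.7 and 21.1 FPKM in KO and WT cells with fatty acids, and 43.5 and 42.3 FPKM in KO and WT untreated cells. For both, as for Ndufs7, the WT library with fatty acids was the low one. The 78 mitochondrial ribosomal protein genes had a median of 0.00 in WT and 0.20 in KO cells for fatty acids minus untreated.

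Of the 30 compared genes for mitochondrial transcription, replication and RNA stability, those with the largest differences in any comparison are named. Hsd17b10, Trmt10c and Prorp among them code for subunits of mitochondrial RNase P, which cuts tRNAs out of the long mitochondrial transcripts. Any part of theirs in the mitochondrial values was not tested. Hsd17b10 had 57.8 and 137 FPKM in KO and WT cells with fatty acids, and 44.3 and 106 FPKM in KO and WT untreated cells. Trmt10c had 48.3 and 100.4 FPKM in KO and WT cells with fatty acids, and 39.2 and 76.3 FPKM in KO and WT untreated cells. Prorp, the nuclease subunit, had 7.34 and 11.6 FPKM in KO and WT cells with fatty acids, and 8.45 and 9.16 FPKM in KO and WT untreated cells. The KO minus WT difference of Prorp was -0.97 with fatty acids and -0.11 without. Hsd17b10 was past 2-fold lower in KO cells in both conditions (-1.60 with fatty acids and -1.25 without), and Trmt10c with fatty acids (-1.42). Mterf1b was past 2-fold lower untreated (-1.37, but -0.78 as a log2 ratio of read shares). In that list of 30, 2 were past 2-fold lower with fatty acids and 2 without, against 8.43% and 2.1% of all compared genes. Past 2-fold higher were 0 in either, against 3.12% and 3.55%. The list had KO minus WT medians of -0.07 with fatty acids and -0.18 without. Of 28 compared assembly factors outside the rule, 1 was past 2-fold higher and 1 lower for KO minus WT with fatty acids (median 0.00), against 3.12% and 8.43% of all compared genes. The higher one was Sco2, a copper chaperone of complex IV, which had 11.7 and 2.76 FPKM in KO and WT cells with fatty acids, and 9.13 and 11.9 FPKM in KO and WT untreated cells. Of 9 compared regulators of mitochondrial biogenesis, 1 was past 2-fold higher and 0 lower in the same comparison (median -0.69), against the same shares, and 2 (Pprc1 at -1.64 and Hcfc1 at -1.44) were past 2-fold lower for fatty acids minus untreated in KO cells, against 5.05%. The higher one, Esrra, a nuclear receptor that acts on oxidative phosphorylation genes, had 6.31 and 1.68 FPKM in KO and WT cells with fatty acids, and 4.29 and 3.56 FPKM in KO and WT untreated cells. Sco2 and Esrra were low in the WT library with fatty acids, as the mass markers were.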

How the data were processed

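RNA of primary mouse hepatocytes was made into libraries with a stranded total RNA kit and sequenced, per the labels' protocols. The authors deposited 1 table that gives, per the file headers, read counts, FPKM and TPM of each gene in each of 4 libraries. The deposited counts are whole numbers, not normalized. FPKM, which the authors deposited scaled to gene length and library, have unequal sums, and the deposited TPM are those values rescaled to an equal sum. StringTie 2.1.3b, HISAT2 2.1.0, Bowtie2, Trimmomatic 0.38, FastQC 0.11.7 and the build mm10 are named, without roles, per the submitters' processing notes. The sources used here do not give the counting rule, its strand setting or the annotation release, so overlapping and antisense genes cannot be told apart.

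FPKM were compared as log2(FPKM + 1), which understates differences of low genes, after a filter at FPKM 1 in at least 1 library, relative to the median of genes whose FPKM reached 5 in all 4 libraries. A 2-fold rule stood in place of a test. Intervals of ratios are exact binomial at 95% and cover counting error only, since reads are not independent molecules. Read counts entered an additive edgeR 4.0.16 fit with limma 3.58.1 (DESeq2 1.42.0 as the alternative) in R 4.3.3. The fit was tried on data simulated with a genotype effect alone. These held no difference between the responses, unlike the data here. Python 3.11.15, numpy 2.4.6, pandas 2.3.3, scipy 1.17.1 and matplotlib 3.10.9 were used otherwise. Promoters are RefSeq's on GRCm38.p6 and transcripts GENCODE M21's, both on the mm10 build.

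The members and lists were chosen with earlier results of these data known. Named genes are the 13 mitochondrial genes, the 5 most abundant nuclear members, paired isoforms, and up to 4 genes per outside list. Also named are the 5 highest and 5 lowest nuclear members per comparison (FPKM 5 or more in the higher of the libraries compared). Last come the 5 with the largest response difference among those with FPKM 5 or more in the highest library. Alternatives were pseudocounts of 0.1 and 5, other filters, the deposited FPKM and TPM scales, CPM with TMM, quantile normalization, an adjustment for GC content and length (100% of mitochondrial and 97.8% of compared nuclear genes had a GC value), and member lists without assembly factors, ND6, COX1 or the shortest genes.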

Additional observations from a re-analysis of the deposited data

Results flagged for a closer look

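There were 7 mitochondrial genes that had fatty acid responses of opposite direction in the KO and WT cells, each at least 1.5-fold relative to the median gene. On the deposited scale 4 of them (ND2, ND4, ND5 and CYTB) were at least 1.5-fold in both directions, and ND1, ATP6 and ATP8 were not. The difference of responses, KO minus WT on the relative log2 scale, was -2.631 for ND2, -2.358 for ND4, -2.22 for CYTB, -2.149 for ND1, -2.008 for ND5, -1.802 for ATP6 and -1.633 for ATP8. The response in KO cells was -1.11, -1.28, -0.84, -0.59, -1.18, -0.59 and -0.72 for these genes, and in WT cells 1.57, 1.14, 1.43, 1.62, 0.88, 1.27 and 0.96. The share of all compared genes that pass this opposite-direction rule was not counted, so the count of 7 has no background. For the difference of responses, 9.33% of all compared genes were past 2-fold lower and 1.48% higher. With 1 library per group the difference was not tested. The other 6 mitochondrial genes (COX1, COX2, COX3, ND3, ND4L and ND6) had a KO response between -0.16 and 0.43.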

How the results depend on the processing

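The mitochondrial median kept its direction in every comparison under the 10 alternatives run for it. Its distance to the nuclear median ranged over the scalings and filters from 0.98 to 1.20 for fatty acids minus untreated in WT cells, from -0.84 to -0.75 in KO cells, from -0.80 to -0.59 for KO minus WT with fatty acids, from 0.92 to 1.12 without, and from -1.89 to -1.58 for KO minus WT responses. The level of each median is less firm. With fatty acids, the mitochondrial KO minus WT median was -0.55 on the deposited scale and -0.16 from TPM, and the nuclear one 0.24 on the deposited scale, 0.62 from TPM and -0.060 after quantile normalization. Untreated, the nuclear KO minus WT median was 0.054 from TPM, -0.35 with TMM and -0.12 after the GC and length adjustment. For fatty acids minus untreated the nuclear median was, in WT cells, -0.11 on the deposited scale, -0.24 from TPM, 0.053 after quantile normalization and 0.039 after the GC and length adjustment, and in KO cells 0.36, 0.31, 0.39 (TMM) and 0.029 (GC and length). For KO minus WT responses, added after the data were seen, it was 0.45, 0.54, 0.22 (TMM) and 0.00935 (GC and length). The cause was not tested. Nuclear members past 2-fold numbered 15 from TPM and 1 on the deposited scale for KO minus WT with fatty acids, and 1 from TPM for WT fatty acids minus untreated. At 1.5-fold they numbered 3 for KO minus WT untreated, 11 with fatty acids and 3 for fatty acids minus untreated in WT cells. Shares of all compared genes were not counted from TPM, on the deposited scale or at 1.5-fold.

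The log2 ratio of the genomes moved beyond counting error, with no change of sign. For KO minus WT untreated it was 0.66 from read counts, 0.90 without COX1, 0.71 without ATP8, ND3 and ND4L, and 0.88 from medians of log2 FPKM. For KO minus WT with fatty acids it was -0.76 from read counts, -0.64 with nuclear subunits only, -0.58 without COX1 and -0.92 from medians. For fatty acids minus untreated in WT cells it was 1.30 from read counts, 1.21 with subunits only, 1.19 without COX1, 1.23 without ATP8, ND3 and ND4L, and 1.29 from medians, and in KO cells -0.11 from read counts, -0.29 without COX1 and -0.51 from medians. For KO minus WT responses it was -1.41, -1.48 and -1.80 from read counts, without COX1 and from medians, and -1.37 without ATP8, ND3 and ND4L. The additive fit called 0 members with RLE size factors, DESeq2 or no filter. Of all 11927 compared genes, RLE called 301 for genotype and 0 for fatty acids, and DESeq2 835 and 25. With no filter, 136 and 0 of 23946 genes were called. Where 0 of all genes were called, 0 members says nothing about the members. Of 2205 values of named genes under alternatives, 469 moved by over 0.2 and 0 past 2-fold turned in sign. No paired analysis was possible because each group holds 1 library.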
